A study of Mus musculus with 27 samples.

Results

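A set of 10 enzymes that turn arachidonic acid into prostaglandins, thromboxane, leukotrienes and hydroxy fatty acids were followed through a sequencing study of irradiated mouse macrophages. They are Ptgs1, Ptgs2, Ptges, Hpgds, Tbxas1, Alox12, Alox15, Alox5, Alox5ap and Ltc4s, chosen by symbol as enzymes of eicosanoid synthesis. All 10 were found among the 19069 gene symbols of the table, and 9 passed the filter of at least 1 CPM (reads scaled by the authors to library size, with column sums of 929400 to 1072727) in at least 3 libraries, which left 13297 genes. Alox15 did not pass. The cells were bone marrow cells of C57BL/6 mice that received a 5-Gy proton dose as FLASH (ultra-high dose rate) or as a standard beam, or no irradiation. All groups were then grown for 7 days with the macrophage growth factor CSF-1 at 10 ng/ml and kept for 2 days in control medium (M0), in the bacterial product LPS at 100 ng/ml (M1) or in the cytokine IL-4 at 20 ng/ml (M2). The 9 groups had 3 libraries each, 27 in all, with 20.7 M to 25.8 M assigned reads. The dose was given to marrow cells, before they were differentiated. In bulk RNA, fewer cells of a type and less RNA per cell cannot be told apart. Nothing in the labels ties replicates to distinct cultures or animals. The p-values therefore speak only of variation among libraries, which may be technical.

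Eicosanoids are made on demand from arachidonic acid that phospholipases release from membranes. The cyclooxygenases PTGS1 and PTGS2 convert it to prostaglandin H2, and terminal enzymes then make prostaglandin E2, D2 or thromboxane A2. Lipoxygenases form the other branch: ALOX5 with its helper protein starts the leukotrienes, and ALOX12 and ALOX15 make hydroxy fatty acids. In macrophages, induction of PTGS2 and PTGES by LPS is a textbook feature of inflammation, and PTGS1 is usually described as the constitutive isoform.

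A total of 5 libraries went against the macrophage state in their labels, and the members' state and irradiation results are given for all 27 libraries and for the 22 without them. Marker counts and the genes named beyond the members are from the 27-library fit unless the sentence says otherwise. All 5 carry replicate number 1 and the same code in their titles. That code is shared by same-numbered libraries across groups and differs between replicate numbers, and its meaning is not given. On axes built from LPS and IL-4 response genes, with the eicosanoid genes left out, 0 was the level of non-irradiated M0 and 1 that of non-irradiated M1 or M2. The libraries labelled FLASH M0 replicate 1 and standard M1 replicate 1 lay with the IL-4 libraries. Those labelled FLASH M2 replicate 1 and standard M2 replicate 1 lay with the LPS libraries, and FLASH M1 replicate 1 lay with M0. The other 7 M1 libraries reached 0.749 to 1.06 on the LPS axis and the other 7 M2 libraries 0.827 to 1.02 on the IL-4 axis. The remaining libraries stayed at or below 0.162 and 0.164. The irradiation labels were not contradicted: the p53 target Cdkn1a was at 168 to 353 CPM in the 9 non-irradiated and 478 to 858 CPM in the 18 irradiated libraries. None of the 5 is non-irradiated, so fold changes among the non-irradiated groups are the same with or without them and only the pooled spread differs. The 5 were set apart by their LPS and IL-4 axis values, so leaving them out favours those responses in the irradiated arms. The 22-library p-values do not allow for this choice. Macrophage markers summed to 6983 to 28372 CPM in all 27 libraries.

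Ptgs2, the inducible cyclooxygenase, and Ptges, the enzyme that makes prostaglandin E2 from its product, were highest in the LPS libraries. Without irradiation, Ptgs2 was at 4.80, 13.3 and 6.18 CPM in M0 (replicates 1, 2 and 3) and at 27.3, 95.5 and 26.5 CPM in M1. All 3 LPS libraries lay above all 3 in medium, and replicate 2 was the highest in both states, as it was in M2 (4.64, 15.1 and 3.95 CPM). Ptges was at 8.21, 9.09 and 9.09 CPM in M0, at 57.7, 27.4 and 64.8 CPM in M1 and at 5.88, 10.7 and 2.48 CPM in M2. Again the M1 libraries stood apart, while M0 and M2 overlapped. On the log2(CPM + 0.5) scale, on which all fold changes are given, Ptgs2 was 2.40 ± 0.57 (SE) higher in M1 than in M0 and Ptges 2.35 ± 0.40 higher, in the fit of the 22 libraries not at odds with their labels. Both rose by the limma test with Benjamini-Hochberg adjustment over all genes (adjusted p = 0.0035 and 1.92e-04). With all 27 libraries pooled into the spread, neither reached an adjusted p of 0.05, the limit for a call (0.229 and 0.187).

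The same pair of genes was then read in the irradiated arms. Neither was called against non-irradiated cells in any state in either fit. The FLASH M1 libraries held 5.16, 93.0 and 140 CPM of Ptgs2 and the standard M1 libraries 4.15, 55.7 and 77.4 CPM. The low value in each is replicate 1, the library at odds with its label. The mirror image stood in M2, where replicate 1 held 102 CPM under FLASH and 117 CPM under standard irradiation, and the other 4 libraries 2.45 to 6.52 CPM. Ptges showed the same layout, with 5.24, 95.2 and 94.0 CPM in FLASH M1 and 3.65, 108 and 68.9 CPM in standard M1. Its M2 values were 90.2, 5.88 and 6.66 CPM under FLASH and 86.3, 4.08 and 9.98 CPM under the standard beam. Without the 5 libraries, LPS raised Ptgs2 by 4.63 ± 0.47 and Ptges by 3.94 ± 0.33 in the mean of the 2 irradiated arms (adjusted p = 8.66e-07 and 8.54e-08). With them the changes were 3.03 and 2.51 and were not called (adjusted p = 0.0767 and 0.0882). Leaving out only the library labelled FLASH M1 replicate 1 gave calls for both (adjusted p = 0.0099 and 0.0122), and so did leaving out only standard M1 replicate 1 (0.0259 and 0.0232).

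**Figure D1:**
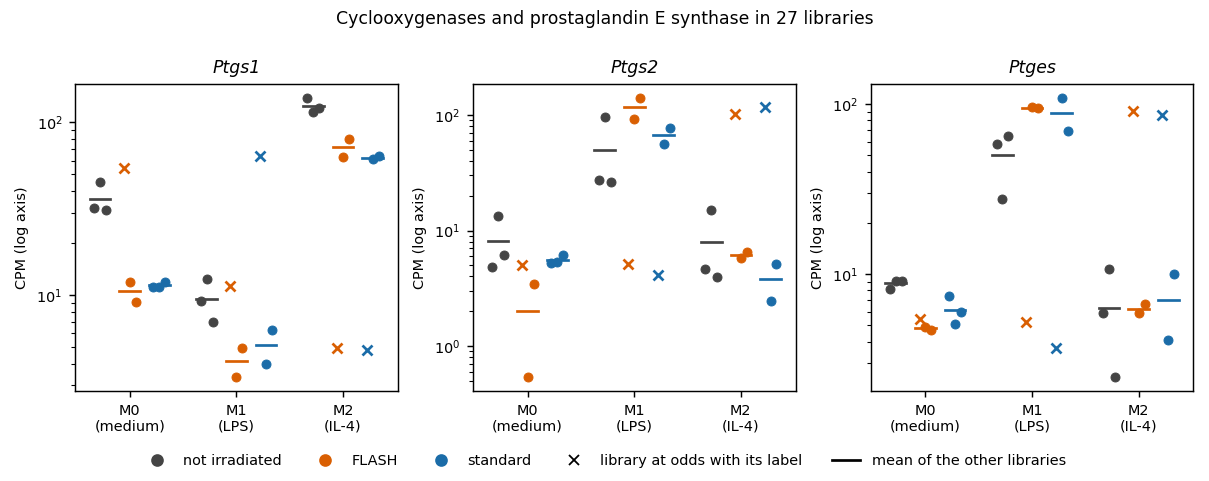
CPM on a log axis of Ptgs1, Ptgs2 and Ptges in each of the 27 libraries, by state and irradiation. Crosses mark the 5 libraries that go against their labelled state and lines are means of the rest. Ptgs2 and Ptges are high in M1, Ptgs1 is high in M2 and low in M1, and the crosses fall outside the other libraries of their label in M1 and M2.

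The sequences upstream of these genes are shown because the isoforms moved in opposite directions under LPS. Promoter windows of 8 of the 10 genes were found in RefSeq (GRCm38.p6), running from 250 bases before to 50 after the annotated start; Alox15 and Alox5ap are named only. A set of 5 short patterns was searched on both strands: the NF-kB consensus, a C/EBP-type pattern TTGCNNAA, a STAT6-type pattern TTCNNNNGAA, the CRE half-site TGACG and the E-box CACGTG. The 250 bases upstream of each start are printed 5′ to 3′ on the gene's strand, with matches in capitals, for Ptgs2 (chr1:150099781-150100030, plus strand), Ptges (chr2:30903298-30903547, minus strand) and Ptgs1 (chr2:36230176-36230425, plus strand).
Ptgs2: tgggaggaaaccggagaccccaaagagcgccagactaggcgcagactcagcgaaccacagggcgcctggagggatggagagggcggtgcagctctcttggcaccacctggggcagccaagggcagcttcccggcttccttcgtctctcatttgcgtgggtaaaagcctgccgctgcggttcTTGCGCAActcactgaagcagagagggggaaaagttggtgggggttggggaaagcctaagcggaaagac
Ptges: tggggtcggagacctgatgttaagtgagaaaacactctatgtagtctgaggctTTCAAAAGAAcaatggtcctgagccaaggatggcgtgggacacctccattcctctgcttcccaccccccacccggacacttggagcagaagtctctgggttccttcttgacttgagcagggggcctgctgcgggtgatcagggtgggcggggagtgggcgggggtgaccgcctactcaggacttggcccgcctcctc
Ptgs1: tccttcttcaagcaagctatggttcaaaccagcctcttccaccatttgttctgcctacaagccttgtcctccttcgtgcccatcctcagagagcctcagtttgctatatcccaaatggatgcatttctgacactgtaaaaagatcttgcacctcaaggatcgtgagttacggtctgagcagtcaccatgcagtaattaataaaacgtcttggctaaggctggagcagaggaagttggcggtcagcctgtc
Ptgs2 held a C/EBP-type match at bases -69 to -62 from the start. Past the start it held a CRE half-site at bases 14 to 18 that overlaps an E-box at bases 17 to 22. Ptges held a STAT6-type match at bases -197 to -188, although its level under IL-4 did not differ from M0 beyond the spread (-0.64 ± 0.40, adjusted p = 0.267 without the 5 libraries). The Ptgs1 window held none of the 5 patterns. Among the other members, Tbxas1 had a STAT6-type match at bases -121 to -112 and Hpgds a C/EBP-type match at bases -176 to -169. The C/EBP-type pattern occurred in 10.8% of all 32851 promoter windows, the STAT6-type in 6.95%, the CRE half-site in 20.8%, the E-box in 7.15% and the NF-kB consensus, found in none of the 8, in 8.46%. These matches describe letters in the sequence only.

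Ptgs1, the cyclooxygenase usually called constitutive, moved with the state of the macrophage, and under LPS in the opposite direction to Ptgs2. Without irradiation it was at 31.8, 44.9 and 31.1 CPM in M0, at 9.22, 12.3 and 7.01 CPM in M1 and at 138, 114 and 121 CPM in M2. The 3 states did not overlap, with the order M2, M0, M1. Ptgs1 fell by 1.88 ± 0.21 under LPS in the 22 libraries (adjusted p = 1.86e-06) and rose by 1.79 ± 0.21 under IL-4 (adjusted p = 7.50e-06). With all 27 libraries the adjusted p values were 0.207 and 0.285. A fit of only the 2 groups compared, which holds none of the 5 libraries, called both (adjusted p = 0.0014 and 0.0011). Outside the 5 libraries the irradiated arms had the same order of states, but by label standard M1 averaged 24.8 CPM and standard M0 11.4 CPM. Without the 5 libraries, Ptgs1 fell by 1.18 ± 0.17 under LPS and rose by 2.56 ± 0.17 under IL-4 (adjusted p = 3.03e-05 and 9.76e-09). With them the changes were -0.75 and 0.96 (adjusted p = 0.549 and 0.481).

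Hpgds, the hematopoietic prostaglandin D2 synthase, was lower under IL-4, in both fits without irradiation and less firmly with it. It was at 168, 145 and 139 CPM in M0, at 116, 121 and 94.8 CPM in M1 and at 32.7, 26.4 and 29.6 CPM in M2 without irradiation. The M2 libraries lay far below the rest. It fell by 2.33 ± 0.45 under IL-4 in the 27-library fit (adjusted p = 0.0035) and by the same amount, with an SE of 0.12, in the 22 libraries (adjusted p = 5.72e-10). With irradiation it fell by 1.14 ± 0.32 in all libraries (adjusted p = 0.0353) and fell by 1.79 ± 0.10 without the 5 (adjusted p = 1.22e-09). That 27-library call was lost in a fit of only the groups compared (adjusted p = 0.0940) and when any 1 of 9 libraries of the irradiated M0 and M2 groups was left out (adjusted p between 0.0594 and 0.115). These were FLASH M0 and FLASH M2 replicates 2 and 3, all 3 of standard M0, and standard M2 replicates 2 and 3. The FLASH M0 replicate 1 library, labelled M0, held 50.1 CPM against 143 and 145 CPM in the other 2, and standard M1 replicate 1 held 32.8 CPM against 112 and 125 CPM. Under LPS, Hpgds fell by 0.45 ± 0.12 without irradiation and fell by 0.28 ± 0.10 with it in the 22 libraries (adjusted p = 0.0082 and 0.0378), and neither was called with 27.

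Tbxas1, the synthase of the platelet activator and vessel constrictor thromboxane A2, fell under LPS. It was at 200, 188 and 207 CPM in M0, at 85.9, 95.2 and 97.8 CPM in M1 and at 220, 239 and 247 CPM in M2 without irradiation. The replicates of a state lay close together and the 3 states did not overlap. Among the 22 libraries it fell by 1.09 ± 0.09 under LPS (adjusted p = 4.65e-08) and rose under IL-4 by 0.25 ± 0.09 (adjusted p = 0.0444). In the 27-library fit the adjusted p values were 0.124 and 0.803. Under irradiation and without the 5 libraries, Tbxas1 fell by 1.52 ± 0.07 with LPS (adjusted p = 9.58e-11), from 188 to 212 CPM in 5 M0 libraries to 63.3 to 77.0 CPM in 4 M1 libraries. IL-4 raised it by 0.21 ± 0.07 (adjusted p = 0.0413), whereas with all libraries its difference was -0.38 and was not called.

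**Figure D2:**
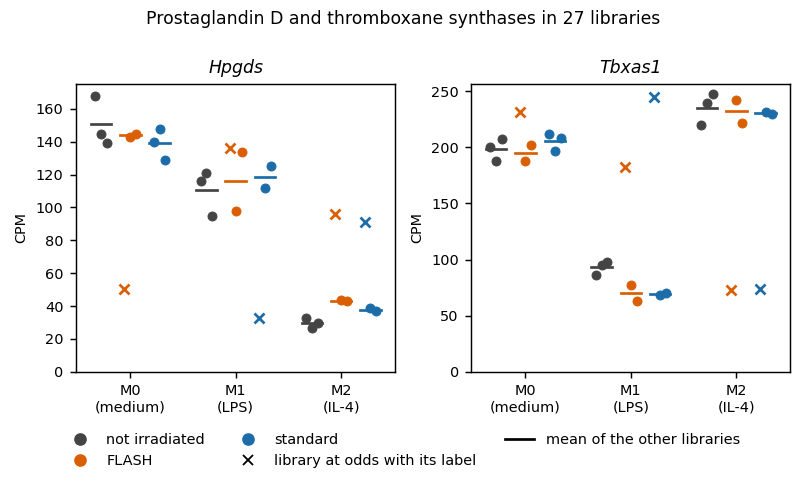
CPM of Hpgds and Tbxas1 in each of the 27 libraries, by state and irradiation, with crosses for the 5 libraries that go against their labelled state and lines for the means of the others. Hpgds is lowest in M2, at 26.4 to 43.8 CPM outside the crosses, and Tbxas1 is lowest in M1, at 63.3 to 97.8 CPM.

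On the lipoxygenase side, Alox12, the 12-lipoxygenase best known from platelets, was a low transcript that differed between states without irradiation. It was at 4.68, 5.92 and 4.35 CPM in M0, at 11.7, 10.2 and 10.5 CPM in M1 and at 1.41, 2.70 and 2.25 CPM in M2. The 3 states did not overlap. In the 22 libraries it rose by 1.05 ± 0.34 under LPS and fell by 1.09 ± 0.34 under IL-4 (adjusted p = 0.0241 and 0.0272). In the 27-library fit neither passed (0.0616 and 0.0755). Alox15, the 12/15-lipoxygenase of some resident macrophages and of IL-4-treated human monocytes, was hardly detected: it ranged from 0 to 0.912 CPM, was listed at 0 in 12 libraries and fell below 3 reads (0.112 to 0.146 CPM, depending on depth) in 21 of 27. No fold change is given for it.

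The 5-lipoxygenase Alox5 was low and scattered, at 0.360 to 8.53 CPM over all libraries, and was called in none of the 15 comparisons in either fit. Without irradiation its M0 values ran from 2.69 to 8.53 CPM, its M1 values from 0.360 to 4.07 CPM and its M2 values from 3.27 to 4.92 CPM, so all 3 states overlapped. Its helper Alox5ap, which presents arachidonic acid to the enzyme, was detected well above it in reads, at 105 to 394 CPM, but CPM is not scaled to transcript length and the 2 levels are not compared. Alox5ap was at 267, 236 and 257 CPM in M0, 394, 230 and 347 CPM in M1 and 167, 109 and 234 CPM in M2 without irradiation. All M2 values lay below the M0 values, the nearest pair being 234 and 236 CPM, and the IL-4 difference, -0.64 ± 0.23, missed the threshold in the 22 libraries (adjusted p = 0.0511). With irradiation it fell by 0.94 ± 0.19 under IL-4 in the 22 libraries (adjusted p = 0.0016), from 216 to 255 CPM to 105 to 139 CPM, and was -0.50 with all libraries (adjusted p = 0.243).

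Ltc4s, which joins leukotriene A4 to glutathione to make leukotriene C4, was near the detection limit but lower under LPS in both fits. It was at 2.03, 2.46 and 1.87 CPM in M0 and at 0.186, 0.552 and 0.135 CPM in M1 without irradiation, with no overlap. It fell by 1.76 ± 0.48 with all 27 libraries (adjusted p = 0.0165) and by the same amount in the 22 (adjusted p = 0.0036). Leaving out M0 replicate 1 or M1 replicate 3 moved the 27-library value past the threshold (adjusted p = 0.0534 and 0.0599). After irradiation it fell by 1.10 ± 0.35 under LPS in the 22 libraries (adjusted p = 0.0204), and the 27-library value was -0.98 (adjusted p = 0.0880). Replicate 2 of FLASH M1 was listed at 0. In M2, Ltc4s held 1.33, 2.03 and 0.552 CPM without irradiation, which overlapped M0, and IL-4 gave no call in either fit.

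**Figure D3:**
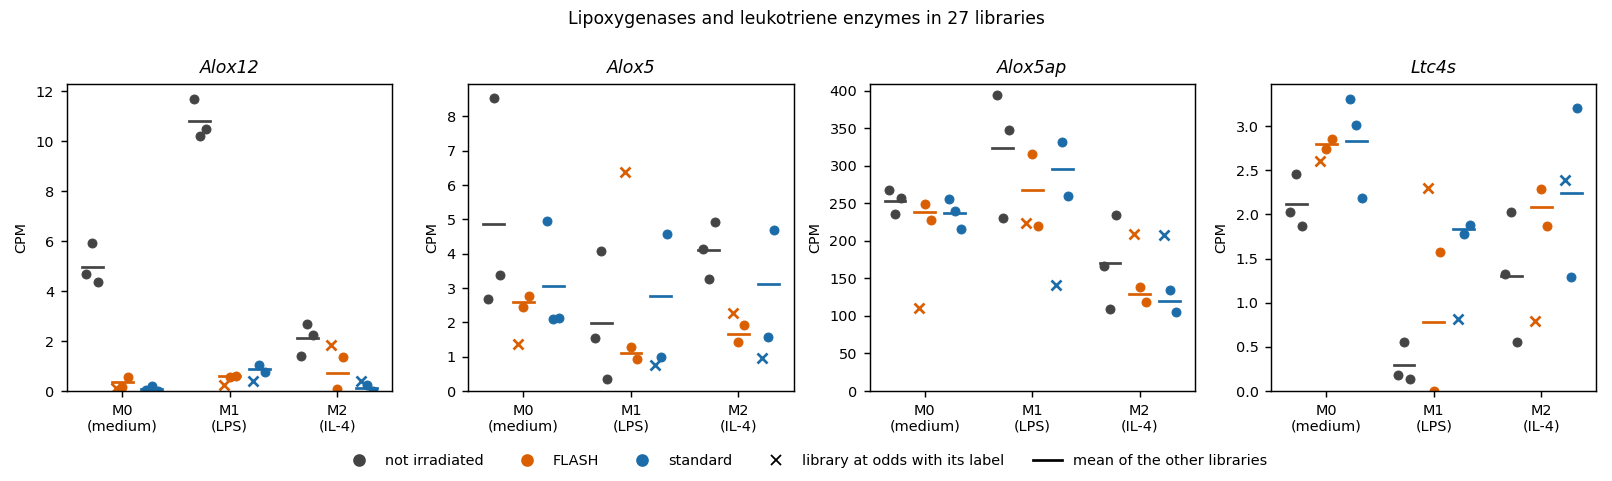
CPM of Alox12, Alox5, Alox5ap and Ltc4s in each of the 27 libraries, by state and irradiation, with crosses for the 5 libraries that go against their labelled state and lines for the means of the others. All 18 irradiated libraries of Alox12 lie at or below 1.83 CPM, and the non-irradiated libraries lie between 1.41 and 11.7 CPM.

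Read against all genes, the LPS and IL-4 counts depend on the fit. Under LPS without irradiation, 1 of the 9 members tested was called with 27 libraries, where 17.4% of all genes were, and 7 of 9 with 22 libraries, where 34.7% were. In the irradiated arms LPS gave 0 of 9 with 27 libraries (all genes 1.11%) and 7 of 9 with 22 (36.9%). At an unadjusted p under 0.05 the 27-library fit held 5 of the 9 members and 3457 of all 13297 genes. IL-4 gave 1 of 9 without irradiation (all genes 9.83%) and 4 of 9 in the 22 libraries (26%). With irradiation it gave 1 of 9 (6.52%) and 4 of 9 (25.8%). In the 22 libraries the median log2 difference of the 9 members under LPS without irradiation was -0.45, beside -0.01 for all genes, with 3 members higher and 4 lower. Marker lists of several cell types moved with the state as well. Without irradiation, dendritic cell markers summed to 197 to 536 CPM in M0, 34.4 to 76.3 CPM in M1 and 1926 to 2538 CPM in M2. Macrophage markers summed to 16487 to 21334, 14007 to 28372 and 6983 to 7451 CPM, and neutrophil markers to 599 to 1026, 155 to 340 and 74.0 to 348 CPM. Of 8 macrophage markers 4 were lower under IL-4 with 27 libraries, and of 12 neutrophil markers 2 were lower under LPS and 6 under IL-4. With 22 libraries 6 macrophage markers were lower under IL-4, and 6 and 7 neutrophil markers were lower under LPS and IL-4. Of 6 dendritic cell markers, 1 was lower under IL-4 with 27 libraries, and 2 were higher and 1 lower with 22. Of 10 platelet and megakaryocyte markers, 2 were higher under LPS and 3 lower under IL-4 with 27 libraries. Their median log2 differences were 0.50 and -0.76, although the list summed lower in M1 than in M0. Of 7 B-lineage markers, a list added after values were seen, 2 were higher under LPS and 2 lower under IL-4 with 27 libraries (medians 0.55 and -0.88). The part of these lists in the state differences of the members was not tested.

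Alox12 was lower after irradiation over the mean of states in both arms, in the 27-library fit and in every alternative run. The FLASH libraries held 0.119, 0.166 and 0.552 CPM in M0, 0.260, 0.565 and 0.605 CPM in M1 and 1.83, 0.0865 and 1.37 CPM in M2. The standard libraries held 0.0438, 0.201 and 0 CPM in M0, 0.405, 1.03 and 0.768 CPM in M1 and 0.391, 0.250 and 0 CPM in M2. In M0 and M1 every irradiated library lay below every non-irradiated one, and in M2 the 1 overlap was FLASH replicate 1, a library at odds with its label, inside the non-irradiated range of 1.41 to 2.70 CPM. Over the mean of the 3 states Alox12 fell by 2.44 ± 0.22 under FLASH (adjusted p = 2.79e-07) and by 2.78 ± 0.22 under standard irradiation (adjusted p = 4.82e-08). Without the 5 libraries the differences were -2.46 and -2.78. Alox12 reached 1 CPM in 12 libraries, 9 non-irradiated and 3 irradiated. The 2 arms share their non-irradiated controls.

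By state, the log2 difference of Alox12 was -2.85 in FLASH M0, -3.55 in FLASH M1, -3.24 in standard M0 and -3.23 in standard M1 (adjusted p = 2.34e-04, 6.93e-06, 5.15e-05 and 2.40e-05). With 22 libraries these were -2.70, -3.38, -3.24 and -3.02 (adjusted p = 0.0011, 1.07e-04, 3.90e-05 and 3.19e-04). In standard M2 it fell by 1.89 (adjusted p = 0.0135), a call lost without non-irradiated M2 replicate 2 (0.0721) or standard M2 replicate 3 (0.0764); with 22 libraries it fell by 2.07 (adjusted p = 0.0080). In FLASH M2 the difference of -0.91 was not called (adjusted p = 0.294, and 0.0791 in the 22 libraries). The difference between the IL-4 response with and without irradiation was 1.65 ± 0.47 for Alox12 (adjusted p = 0.437), so a smaller fall in M2 was not shown. Without FLASH M2 replicate 2, that value was 1.95 (adjusted p = 0.0454). Alox12 averaged 4.99, 10.8 and 2.12 CPM in non-irradiated M0, M1 and M2. With 0.5 CPM added, the largest possible fall is therefore smallest in M2, which limits any comparison of the falls between states.

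Many platelet and megakaryocyte markers were lower along with Alox12. Over all genes, 7.72% were called under FLASH and 7.88% under standard irradiation. Of 10 platelet and megakaryocyte markers tested, 8 were lower under FLASH and 8 under standard irradiation, with median log2 differences of -1.30 and -1.28, beside -0.01 and -0.01 for all genes. Itga2b, the platelet integrin, averaged 13.3 ± 1.58, 20.1 ± 2.95 and 4.81 ± 1.16 CPM (SD, n = 3) in non-irradiated M0, M1 and M2, and 0.733 to 1.03 CPM in the 6 irradiated groups. Ppbp, a platelet chemokine, averaged 21.2, 52.6 and 9.27 CPM in the same 3 non-irradiated groups and 0.778 to 2.45 CPM in the irradiated ones. Without irradiation the whole list summed to 281 to 354 CPM in M0, 175 to 231 CPM in M1 and 207 to 328 CPM in M2. Under LPS without irradiation 2 of the 10 were higher and 0 lower (all genes called 17.4%), and 2 and 2 with 22 libraries (34.7%). Under IL-4 without irradiation 0 were higher and 3 lower with 27 libraries (9.83%). The list summed to 175 to 354 CPM without irradiation and 55.9 to 308 CPM with it, and Pf4, which macrophages also express, was not called in either arm. No marker of the list was below 3 reads in all irradiated libraries.

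Lists of other lineages differed in how far they moved. Of all genes, 7.72% were called under FLASH and 7.88% under standard irradiation (14.3% and 17.9% with 22 libraries). Of 12 neutrophil markers 11 were lower under FLASH and 10 under standard irradiation, with sums of 74.0 to 1026 CPM against 34.3 to 137 CPM. Of 7 B-lineage markers tested, a list added after values were seen, 6 and 5 were lower, with sums of 64.6 to 196 CPM against 50.4 to 93.0 CPM, and Blk was below 3 reads in all 18 irradiated libraries. Of 4 mast cell and basophil markers tested, 2 and 3 were lower, with sums of 4.87 to 20.1 CPM against 1.20 to 10.0 CPM and with Ms4a2, Mcpt4 and Cma1 below 3 reads in all irradiated libraries. Of 4 eosinophil markers, 2 were lower in each arm, with sums of 18.1 to 80.5 CPM against 16.7 to 86.5 CPM and with Il5ra below 3 reads in all irradiated libraries. Of 6 dendritic cell markers 1 was lower in each arm (3 with 22 libraries), with sums of 34.4 to 2538 CPM against 50.3 to 2326 CPM. Of 8 macrophage markers, 1 was higher and 1 lower in each arm, and with 22 libraries 2 were lower under FLASH and 3 under standard irradiation. Of the mast cell and basophil markers, 3 were lower in each arm with 22 libraries, and of the eosinophil markers 1 was then higher and 2 lower under FLASH. The part of these cell types in the Alox12 result was not tested.

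By the rule for likeness, the 3 genes whose log2 values followed Alox12 most closely over the 27 libraries were Ms4a1 (Pearson r = 0.946), Rab27b (0.935) and Pou2af1 (0.917). Ms4a1 encodes the B-cell antigen CD20, Pou2af1 a B-cell transcription coactivator and Rab27b a small GTPase of secretory granules, including those of platelets. Ms4a1 and Pou2af1 ranged from 0 to 6.28 and from 0 to 3.69 CPM. These correlations are a description: the points share libraries and groups.

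Ptgs1 was lower after irradiation, a difference called in the 22 libraries and not in 27. In M0, the 5 irradiated libraries not at odds with their labels held 9.16 to 11.9 CPM, against 31.1 to 44.9 CPM without irradiation. In M1, 4 such libraries held 3.35 to 6.27 CPM against 7.01 to 12.3 CPM, and in M2, 4 held 61.6 to 80.4 CPM against 114 to 138 CPM. The ranges did not overlap in any state. The libraries at odds held 54.1 CPM (FLASH M0), 11.3 CPM (FLASH M1), 64.0 CPM (standard M1), 4.94 CPM (FLASH M2) and 4.78 CPM (standard M2). Over the mean of states Ptgs1 fell by 1.20 ± 0.13 under FLASH and by 1.14 ± 0.13 under standard irradiation in the 22 libraries (adjusted p = 1.79e-05 and 1.77e-05). With all 27 the estimates were nearly the same, -1.21 ± 0.59 and -1.14 ± 0.59, with adjusted p values of 0.244 and 0.267. PTGS1 is also the cyclooxygenase of platelets, whose markers moved as described for Alox12; their part here was not tested.

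State by state and in the 22 libraries, the difference of Ptgs1 was -1.72 in FLASH M0, -1.09 in FLASH M1, -1.60 in standard M0, -0.83 in standard M1 and -0.98 in standard M2 (adjusted p = 6.82e-04, 0.0101, 2.13e-04, 0.0449 and 0.0268). In FLASH M2 the difference of -0.80 ± 0.23 was not called (adjusted p = 0.0704). None of these was called with 27 libraries. In standard M1 the 27-library value had the opposite sign, 0.36.

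**Figure D4:**
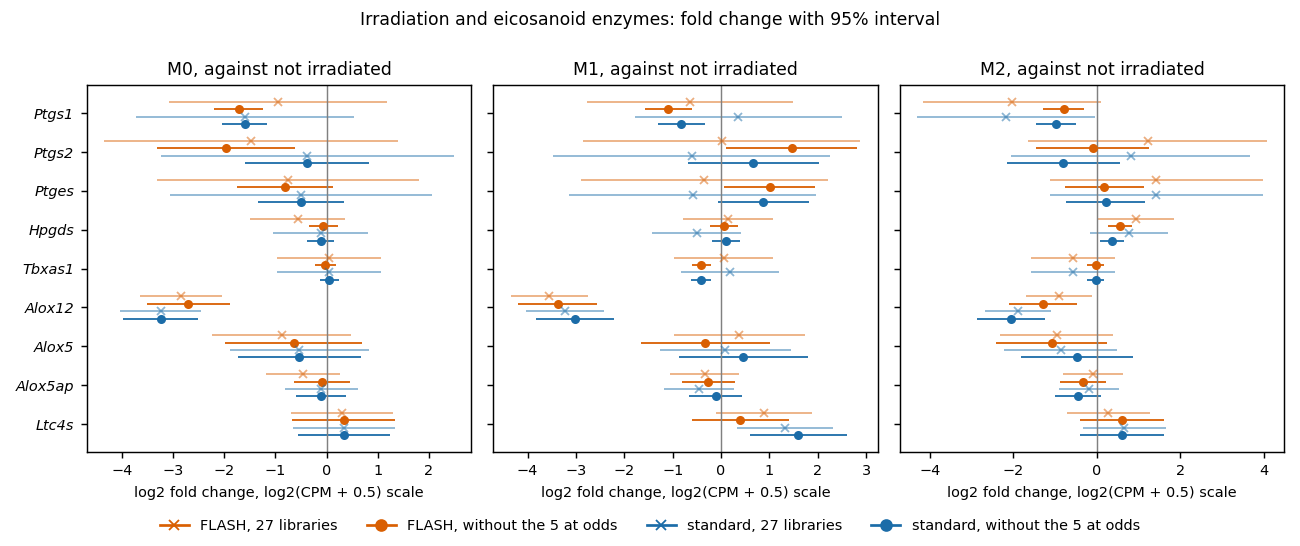
Log2 fold change of each tested member, irradiated against not irradiated, in M0, M1 and M2, with 95% intervals, for FLASH and standard irradiation and for both fits (crosses, 27 libraries; circles, 22 libraries). Alox12 lies left of 0 in every panel, and the intervals of Ptgs1, Ptgs2, Ptges, Hpgds and Tbxas1 are narrower in the 22-library fit.

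Tbxas1 and Hpgds had irradiation calls only in the 22 libraries. Ltc4s had calls there, with 1 library left out, and in a fit of only the groups compared. Tbxas1 fell in M1 by 0.41 ± 0.10 under FLASH and 0.42 ± 0.10 under standard irradiation in the 22 (adjusted p = 0.0201 and 0.0175), from 85.9 to 97.8 CPM to 63.3 to 77.0 CPM. With 27 libraries the signs were the opposite, 0.05 and 0.19, and neither was called. Hpgds rose by 0.55 ± 0.14 in FLASH M2 (adjusted p = 0.0354), from 26.4 to 32.7 CPM to 43.8 and 42.9 CPM, and its value in standard M2 was 0.36 ± 0.14 (adjusted p = 0.173). With 27 libraries Hpgds differed by 0.93 in FLASH M2 and 0.77 in standard M2, without a call (adjusted p = 0.366 and 0.466). Macrophage markers summed to 6983 to 7451 CPM in non-irradiated M2. In the 3 FLASH M2 libraries, of which replicate 1 is at odds with its label, they summed to 12097, 14769 and 22218 CPM. Their part in the Hpgds rise was not tested. Ltc4s rose by 0.85 ± 0.27 over the mean of states under standard irradiation in the 22 libraries (adjusted p = 0.0354), and the FLASH value was 0.45 ± 0.27 (adjusted p = 0.311). The 27-library values of Ltc4s were 0.77 and 0.49 and were not called (adjusted p = 0.0922 and 0.322). A fit of only the groups compared, with all their libraries, called the standard value (0.77, adjusted p = 0.0338). Leaving out FLASH M1 replicate 2, the Ltc4s library at 0, gave calls for Ltc4s over the mean of states (0.74, adjusted p = 0.0399) and in M1 (1.64, adjusted p = 0.0294) under FLASH. Alox5 and Alox5ap were called in no irradiation comparison in either fit.

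Ptgs2 and Ptges were not called after irradiation in any state. In FLASH M0 with 22 libraries the differences were -1.96 ± 0.64 for Ptgs2 and -0.81 ± 0.45 for Ptges (adjusted p = 0.0894 and 0.333). The FLASH M0 libraries held 5.02, 0.539 and 3.45 CPM of Ptgs2, the first being the one at odds with its label, so the other 2 lay below the non-irradiated M0 range. In M1 the irradiated libraries not at odds with their labels held 55.7 to 140 CPM of Ptgs2 and 68.9 to 108 CPM of Ptges, against 26.5 to 95.5 CPM and 27.4 to 64.8 CPM without irradiation. Ptges did not overlap and Ptgs2 did. With 22 libraries the FLASH M1 differences were 1.46 ± 0.64 and 1.01 ± 0.45 (adjusted p = 0.220 and 0.228), and the standard M1 differences 0.67 ± 0.64 and 0.87 ± 0.45 (adjusted p = 0.606 and 0.279). In the same fit, the LPS response with irradiation minus that without was 2.23 ± 0.74 for Ptgs2 and 1.59 ± 0.52 for Ptges, which missed the threshold (adjusted p = 0.121 and 0.113). For Tbxas1 it was -0.43 ± 0.11 (adjusted p = 0.0582) and for Ptgs1 0.70 ± 0.27 (adjusted p = 0.171). With 27 libraries these values were 0.63 for Ptgs2, 0.16 for Ptges, 0.06 for Tbxas1, of the opposite sign, and 1.13 for Ptgs1 (adjusted p = 0.931, 0.984, 0.983 and 0.795). No member was called in either interaction in either fit. All genes called made up 0.278% (27 libraries) and 2% (22 libraries) for LPS and 0.0451% in each fit for IL-4.

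The irradiation counts stand beside these backgrounds. Over the mean of states, FLASH called 1 of 9 members (Alox12) with 27 libraries, where 7.72% of all genes were called, and 2 of 9 with 22 (14.3%). Standard irradiation called 1 of 9 (7.88%) and 3 of 9 (17.9%). For FLASH by state the counts were 1 and 2 of 9 in M0 (all genes 2.11% and 5.29%), 1 and 3 in M1 (2.53% and 4.84%) and 0 and 1 in M2 (1.1% and 3.28%). For standard irradiation they were 1 and 2 in M0 (2.02% and 7.36%), 1 and 3 in M1 (2.6% and 5.52%) and 1 and 2 in M2 (1.35% and 3.38%). In FLASH M2, where the 27-library fit called 0, Alox12 and Hpgds had an unadjusted p under 0.05, as had 1811 of all 13297 genes.

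FLASH and standard irradiation were not told apart by any member. Over the mean of states limma called 0 of 9 members and 0% of all genes in either fit, and 0 members and 393 of 13297 genes had an unadjusted p under 0.05 with 27 libraries (1071 genes with 22). For Alox12 the FLASH minus standard difference was 0.35 with a 95% interval of -0.11 to 0.81. For Ptgs1 in the 22 libraries it was -0.07 (-0.37 to 0.23), for Tbxas1 -0.02 (-0.15 to 0.10) and for Hpgds 0.07 (-0.11 to 0.24). The intervals of Ptgs2 (-0.86 to 0.80), Ptges (-0.65 to 0.51) and Ltc4s (-1.02 to 0.22) leave room for larger differences.

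Around these enzymes, 40 further genes of arachidonate release, lipoxygenase and prostanoid side branches, leukotriene maturation, breakdown, transport and receptors were tested, of 49 in the table. Under LPS without irradiation 5 were higher and 4 lower with 27 libraries (all genes called 17.4%), and 11 higher and 7 lower with 22 (34.7%). The values of single genes here are from the 27-library fit, and each gene named was called in the same direction with 22. The phospholipases Pla2g4a and Pla2g4c, which release arachidonic acid, rose by 1.20 and 1.75 (adjusted p = 0.0275 and 0.0262). The cysteinyl leukotriene receptor Cysltr2, the prostaglandin E2 receptor Ptger2 and the chemerin and resolvin receptor Cmklr1 rose by 2.70, 1.16 and 1.08 (adjusted p = 0.0067, 0.0224 and 0.0430). Hpgd, which inactivates prostaglandins, fell by 3.16, and Cyp4f18, which inactivates leukotriene B4, fell by 2.24 (adjusted p = 0.0125 and 7.94e-04). Lta4h, the leukotriene B4-forming hydrolase, and Dpep2, a dipeptidase that trims leukotriene D4, were lower (-1.09 and -1.30) (adjusted p = 0.0232 and 0.0224). With irradiation none of the 40 was called under LPS with 27 libraries (all genes 1.11%), 13 having an unadjusted p under 0.05 beside 3457 of 13297 genes, and 12 were higher and 9 lower with 22 (36.9%).

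Under IL-4 without irradiation 3 of the 40 were higher and 1 lower with 27 libraries (all genes called 9.83%), and 6 and 7 with 22 (26%). The prostacyclin receptor Ptgir rose by 2.97, Ptger2 by 1.26 and the prostaglandin E synthase Ptges2 by 0.94 (adjusted p = 4.14e-04, 0.0214 and 0.0095), and Cmklr1 fell by 1.99 (adjusted p = 0.0025). After irradiation 4 were higher and 1 lower (all genes 6.52%), and 8 and 5 with 22 libraries (25.8%). Those higher were the secreted phospholipase Pla2g5 (1.25), Ptges2 (0.66), Ptgir (1.25) and the leukotriene B4 receptor Ltb4r1 (1.93), and Hpgd was lower (-2.27) with adjusted p values of 0.0162, 0.0146, 0.0119, 0.0319 and 0.0221 in that order.

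After irradiation, 3 of the genes called among the 40 in each arm were receptors, which make up 12 of the 40. FLASH gave 1 higher and 4 lower over the mean of states and standard irradiation 1 and 3, where 7.72% and 7.88% of all genes were called. With 22 libraries the counts were 2 and 7, and 3 and 8, beside 14.3% and 17.9%. Under FLASH and standard irradiation Ltb4r1 was lower (-1.70 and -1.65), as were the prostaglandin E2 receptor Ptger3 (-1.30 and -1.23) and the thromboxane receptor Tbxa2r (-0.90 and -0.71) (adjusted p = 0.0167 and 0.0189, 3.13e-06 and 5.82e-06, 0.0015 and 0.0097). Tbxa2r was below 3 reads in every library of FLASH M0, M1 and M2 and of standard M0. Ptger3 was below 3 reads in every library of FLASH M1, FLASH M2 and standard M1, so depth limits the size of both falls. Ptgr1, a reductase that breaks down prostaglandins and leukotriene B4, rose by 0.47 and 0.56 (adjusted p = 0.0043 and 8.96e-04). The prostaglandin transporter Slco2a1 fell by 1.04 under FLASH (adjusted p = 0.0331). Marker lists of several other blood cells moved in the same comparisons, and their part was not tested. With 22 libraries the LPS response of Cyp4f18 was 1.66 ± 0.35 higher with irradiation than without (adjusted p = 0.0231), the 1 gene of the 40 called in an interaction, and with 27 it was 1.93 ± 0.43 (adjusted p = 0.0609).

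**Figure D5:**
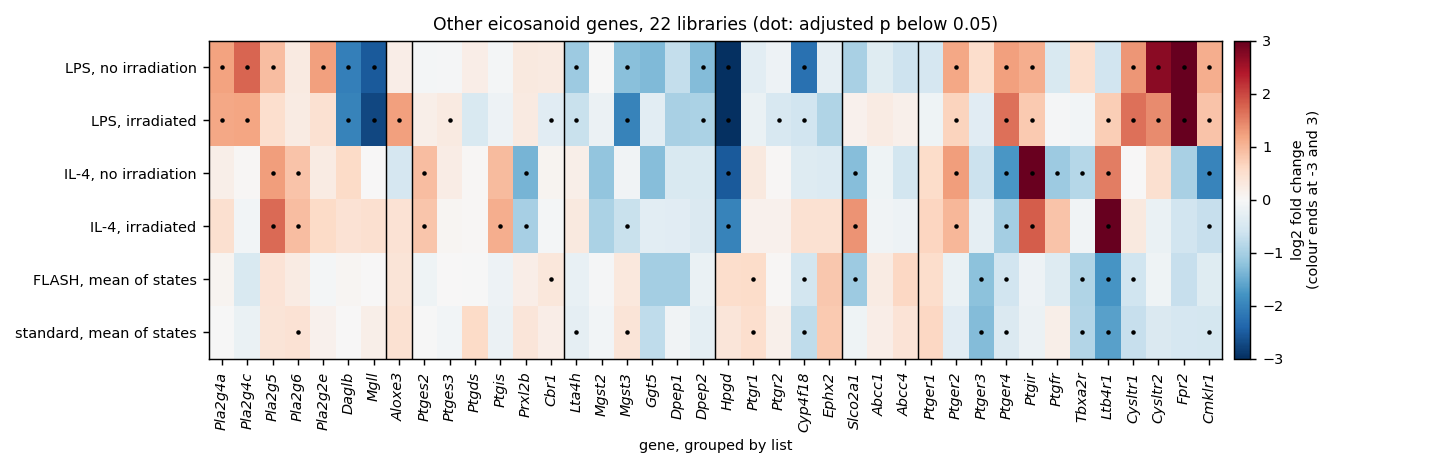
Log2 fold change of 40 other eicosanoid genes, grouped by list, in 6 comparisons of the 22 libraries not at odds with their labels; colour runs from blue (lower) to red (higher) and dots mark an adjusted p below 0.05. The LPS and IL-4 rows hold more dots than the irradiation rows, where Ltb4r1 and Ptger3 have the deepest blue.

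Among members called with 27 libraries, Hpgds was followed most closely by Maf (r = 0.955), Mpeg1 (0.954) and Fam134b (0.950), and Ltc4s by Rac3 (0.822), Unc119 (0.774) and Wee1 (0.773). Maf is a macrophage transcription factor and Mpeg1 encodes the pore-forming protein perforin-2 of macrophages. The values are over all 27 libraries, including the 5 at odds with their labels, and describe them only.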

How the data were processed

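RNA of 27 libraries in 9 groups was measured; groups came from the titles. Per the submitters' processing notes, the authors used kallisto 0.46.1, edgeR 3.36.0 and R 4.0.5, and the build they name is GRCh38 although the samples are mouse; coordinates were therefore taken from RefSeq only. The deposited table holds the signal of 19069 gene symbols as TMM-scaled CPM (column sums 929400 to 1072727) and 1 entry without a symbol (0.0065% of the total), left out. No counts were used: 69.1% to 98.0% of values per library were whole reads within 0.01 read.

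Genes with at least 1 CPM in 3 libraries were fitted as log2(CPM + 0.5), which understates changes of low genes, with 9 group means in limma 3.58.1 (R 4.3.3, statmod 1.5.0; trend, robust). P-values were adjusted by Benjamini-Hochberg over 13297 genes per comparison. The members and lists were chosen with earlier results of these data known. Named were all members, called genes of the eicosanoid lists (at most 3 a list and comparison, by smallest p), defining markers, and the 3 genes with the highest correlation to each member called with 27 libraries. Axes used 100 genes each, with a limit of 0.5. Of the listed genes, 2 are not analysed here, and 1 marker is not reported here. The fit was tested on simulated data. Promoter sequences are RefSeq's. Alternatives were pseudocount, filter, scaling, trend, groups fitted, replicate block, and left-out libraries.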

Additional observations from a re-analysis of the deposited data

How the results depend on the processing

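The 5 libraries at odds with their labels moved the results most. Without them the members called were 7 under LPS without irradiation (from 1) and 7 with it (from 0), and 4 under IL-4 without irradiation (from 1) and 4 with it (from 1). They were 2 for FLASH and 3 for standard irradiation over the mean of states (from 1 each), 2, 3 and 1 for FLASH in M0, M1 and M2 (from 1, 1 and 0) and 2, 3 and 2 for standard irradiation (from 1 each). Of 135 member values, 26 were newly called with the same sign and no call was lost. A further 4 were newly called with a changed sign. They were Tbxas1 under IL-4 in the irradiated arms (0.21, from -0.38) and in FLASH M1 (-0.41, from 0.05). The others were Tbxas1 in standard M1 (-0.42, from 0.19) and Ptgs1 in standard M1 (-0.83, from 0.36). Other values changed sign without a call in either fit, among them Ptges in FLASH M1 (1.01, from -0.34). The cause was not tested.

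Of 915 values under the 7 other alternatives, 12 were newly called, 3 calls were lost and none reversed a call. Fitting only the compared groups gave 7 members under LPS and 3 under IL-4 without irradiation, 0 under IL-4 with irradiation, and 2, 2 and 0 for standard irradiation over the mean of states, in M0 and in M2. A pseudocount of 1 gave 2 members under LPS and 2 under IL-4 without irradiation, and a filter of 5 CPM gave 0 under LPS without irradiation, because it left out Ltc4s. With the replicate number as a block (replicate block), 0 members were called under IL-4 in the irradiated arms (Hpgds, adjusted p = 0.0627), and the other counts kept their main value. The numbers were not taken as pairs, and the labels do not say what a number stands for. Of 108 same-number pairs, 9 correlated above 0.1, with a median of -0.100. Those pairs include the 5 libraries at odds with their labels, which limits what that median can show. Among the non-irradiated groups, 0 of 9 pairs were above 0.1 and the median was -0.007. Under the 7 alternatives, the adjusted p under LPS without irradiation ran from 0.0166 to 0.281 for Ptgs2 and from 5.03e-04 to 0.163 for Tbxas1.

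Leaving out each library in turn, the members called ranged from 0 to 1 under LPS and stayed at 1 under IL-4 without irradiation, and ranged from 0 to 4 under LPS and 0 to 1 under IL-4 with it. They ranged from 1 to 2 for FLASH over the mean of states and in M1 and from 0 to 1 for standard M2 and for the irradiation by IL-4 interaction. They stayed at 1 for standard over the mean, FLASH M0, standard M0 and standard M1, and at 0 for FLASH M2, FLASH against standard and the LPS interaction. Depth limits Alox15, Ltc4s, and, after irradiation, Alox12, Ptger3 and Tbxa2r.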
